A study of Mus musculus with 12 samples.

Results

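The genes described here are the interferon-inducible GTPases of mouse microglia, a set that holds the guanylate-binding protein genes Gbp2, Gbp3, Gbp5, Gbp7 and Gbp9 and the immunity-related GTPase genes Irgm1, Igtp and Iigp1. Members were found by gene symbol in the deposited expression table, and all 8 of 8 were present among its 14541 genes. All 8 also passed the filter on low values, which kept 11242 genes with at least 1 FPKM (fragments per kilobase of gene, scaled to sequencing depth) in at least 4 libraries. Each of the 3 groups held 4 RNA-seq libraries of wild-type microglia, the resident macrophages of the brain, taken from forebrains of pups 7 to 9 days old by beads against CD11b. This surface protein is shared by other myeloid cells. In wells of 40000 to 80000 cells, these were kept for 6 h with 500 nM recombinant Hevin, with 50 ng/mL lipopolysaccharide (LPS), or with extra growth medium (Media). Hevin is a matricellular protein secreted by astrocytes, and LPS, from the outer membrane of Gram-negative bacteria, is sensed by Toll-like receptor 4. All 3 groups share the dissociation, the bead isolation and the short culture. Separate animals or cultures are not stated in the labels, and p-values therefore cover just the spread among libraries, which may be technical. Nor can fewer cells of a type be told apart from less RNA per cell in such bulk libraries.

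Guanylate-binding proteins and immunity-related GTPases are among the most strongly interferon-induced proteins of mouse cells. They assemble on the vacuoles of intracellular bacteria and parasites, break these open or mark them for destruction, and guanylate-binding proteins also help bacterial LPS reach the non-canonical inflammasome. Interferon gamma acts mainly on GAS elements of target promoters, while type I interferon acts mainly on interferon-stimulated response elements (ISREs), through a complex that holds STAT2 and IRF9. In macrophages, LPS induces interferon beta, which then acts back on the cells through the type I interferon receptor.

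The promoters are shown because the 8 genes moved together under LPS. RefSeq promoter windows (assembly GRCm38.p6, 250 bases before to 50 after a gene's start) were used for 6 of 8 members, not for Gbp9 and Iigp1. Stretches around the motif matches follow, 5′ to 3′ on the gene's strand, with matches in capitals and positions counted from the RefSeq start used for the window, so that the base before it is -1. These starts differ from the GENCODE gene bounds given further on, most of all for Gbp5, whose lines lie inside the GENCODE gene. For Gbp5, Gbp3, Gbp2 and Irgm1, a longer stretch before the start overlapped an annotated exon, so lines of 30 bases around matches are shown. Whether these shorter lines themselves overlap an exon was not checked. The lines of Gbp7 and Igtp overlap no annotated exon. Capitals mark the ISRE core GAAANNGAAA, or its reverse TTTCNNTTTC, in all lines except the second of Gbp5. There they mark a kappaB-like match. In Gbp7 and Igtp, capitals also mark GAS matches (TTCNNNGAA).
Gbp5, chr3:142496759-142496788, plus strand, positions -175 to -146: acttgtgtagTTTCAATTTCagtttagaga
Gbp5, chr3:142496847-142496876, plus strand, positions -87 to -58: ggagaggaaaGGAAATTCCCagggctggcc
Gbp7, chr3:142530220-142530335, plus strand, positions -116 to -1: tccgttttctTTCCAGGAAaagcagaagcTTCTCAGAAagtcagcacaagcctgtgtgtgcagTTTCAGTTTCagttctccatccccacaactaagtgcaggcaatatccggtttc
Gbp3, chr3:142559992-142560021, plus strand, positions -52 to -23: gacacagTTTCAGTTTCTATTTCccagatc
Gbp2, chr3:142620594-142620623, plus strand, positions -69 to -40: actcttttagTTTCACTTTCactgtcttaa
Irgm1, chr11:48871428-48871457, minus strand, positions -37 to -8: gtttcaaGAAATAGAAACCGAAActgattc
Igtp, chr11:58199501-58199555, plus strand, positions -55 to -1: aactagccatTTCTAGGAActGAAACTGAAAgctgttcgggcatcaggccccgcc

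Each of the 6 members with a promoter held the ISRE core on either strand, against 3.44% of 32851 RefSeq promoters of 300 bases. Gbp3 has a further annotated promoter, and that one held none. In Gbp3 and Irgm1, a pair of ISRE cores overlapped. The GAS motif TTCNNNGAA, which reads the same on both strands, was in 3 of 6 members (Gbp5, Gbp7 and Igtp) and in 8.30% of all promoters. ISRE and GAS stood together in 3 of the 7 member promoters and in 0.454% of all. The kappaB-like motif GGGANNNNCC was in Gbp5 and Gbp2 and in 20.7% of all promoters. Of 9 other interferon-inducible GTPase genes with a promoter, 6 held the ISRE core, 4 the GAS motif and 0 the kappaB-like motif. The motifs were chosen with the member promoters already seen. A match is a match of letters, not a site at which binding was measured.

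GENCODE M21 (GRCm38, also named mm10) places 4 members side by side on chromosome 3. They are Gbp5 at chr3:142493978-142522344, Gbp7 at chr3:142530342-142550149, Gbp3 at chr3:142560026-142573209 and Gbp2 at chr3:142620602-142638008, all on the plus strand. Gbp9 lies in a second cluster at chr5:105077630-105139539 on the minus strand. Irgm1 is at chr11:48861968-48871683 on the minus strand and Igtp at chr11:58199556-58207591 on the plus strand. These genes are close relatives, so reads can be split between them. Of the 100-base stretches in its transcripts, 10.0% were shared with other genes for Gbp7 (Gbp3 and Gm43802), 5.16% for Igtp (Irgm2), 2.01% for Gbp9 and 0.708% for Gbp3. No such stretch was shared for Gbp2, Gbp5, Irgm1 or Iigp1. How the authors counted shared reads and strand is not given in the sources used here.

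Libraries numbered 2 stood apart, and this touches each result below. In all 24 sets of 1 member in 1 group, the library numbered 2 was the lowest of the 4. Being lowest in number 2 in all 3 groups held for 8 of 8 members and for 8.58% of the genes tested. Member levels in number 2 were at 28.8 to 45.5% (Media), 20.1 to 37.3% (Hevin) and 28.9 to 51.4% (LPS) of the mean of the other 3 libraries of the group. The median gene stood at 98.6, 100.2 and 98.5%. Each result was therefore also computed without these 3 libraries and with the replicate number as a block. Numbers were taken to pair the libraries, since the column headers join them and same-numbered libraries deviated together in all 12 pairs. Libraries of numbers 3 and 4 also deviated together, at r of 0.435 to 0.528, against 0.230 to 0.512 within number 4. The deviations alone therefore do not single out the pairs of number 4.

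Untreated microglia already expressed all 8 genes, and the immunity-related GTPases dominated. Irgm1, which regulates the other family members and autophagy, was listed at 88.4, 43.2, 126 and 87.4 FPKM in Media libraries 1 to 4. Igtp, also called Irgm3, was at 77.0, 24.9, 108 and 74.6 FPKM. Irgm1 was above Igtp in each of the 4 Media libraries, and these 2 genes together made up 72.6% ± 2.90 (SD, n = 4) of the summed level of the 8 members. The effector Iigp1, also called Irga6, was far lower, at 6.00 FPKM ± 3.11 (SD, n = 4). Among the guanylate-binding proteins the order in Media was Gbp2 (20.5 FPKM ± 14.5), Gbp9 (11.9 ± 5.67), Gbp3 (9.73 ± 5.69), Gbp7 (7.73 ± 3.29) and Gbp5 (5.36 ± 2.41, all SD, n = 4). Each gene in that order exceeded the next within all 4 Media libraries, except that Iigp1, which stood between Gbp7 and Gbp5, exceeded Gbp5 in 3 of 4. Between libraries, a member's highest Media value was 2.93 to 5.01 times its lowest, whereas this ratio was 1.38 for the median gene tested.

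**Figure D1:**
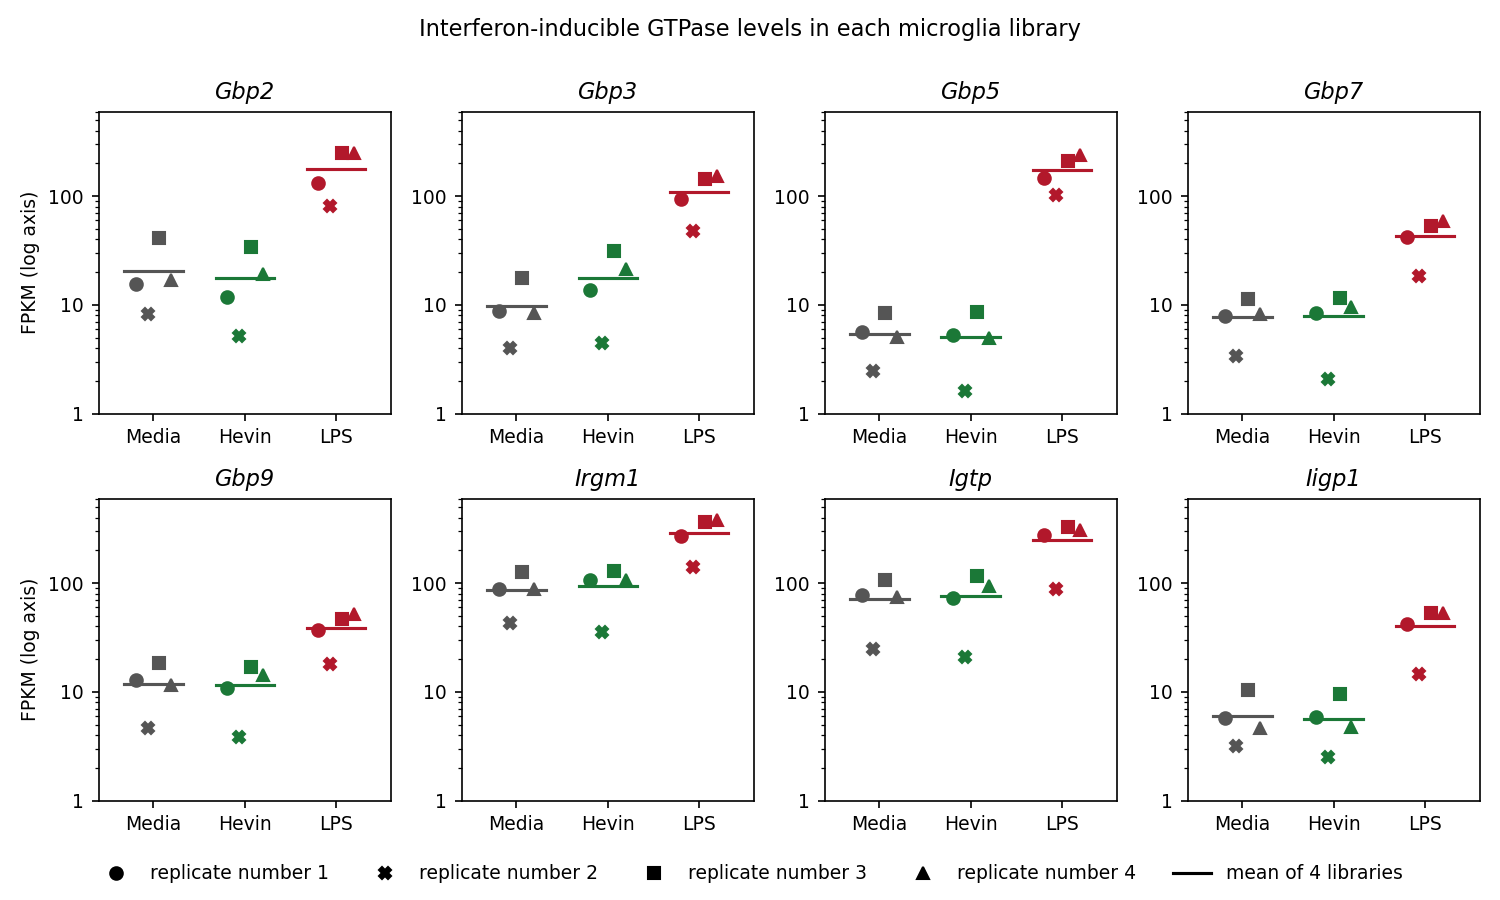
Level of each GTPase gene in FPKM (log axis, the same in all panels) in the 4 Media, 4 Hevin and 4 LPS libraries, with the symbol giving the replicate number and the line the group mean. Crosses, the libraries numbered 2, are lowest in every group of every panel, and LPS libraries lie above Media libraries of the same number.

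LPS against Media asks how a known bacterial stimulus acts on these cells. All 8 members rose, with adjusted p between 5.45e-06 and 0.0414 (limma on log2(FPKM + 1), adjusted by Benjamini-Hochberg over 11242 genes), where 13.2% of genes tested were called higher. The median member changed by 2.41 on the log2 scale and the median gene tested by -0.02. LPS and Media libraries did not overlap for 6 of 8 members, against 13.3% of genes higher without overlap. Within replicate numbers, LPS exceeded Media in 32 of 32 member pairs, and 25.8% of genes were higher in all 4 pairs. With the block, all 8 were called as well, with adjusted p from 5.00e-09 to 1.12e-06, beside 21.5% of genes called higher. The 6 astrocyte markers, all listed and none at 0 throughout, summed to 54.0 to 99.1 FPKM in Media, 25.1 to 58.5 FPKM in Hevin and 121 to 245 FPKM in LPS. Of the 4 tested, Gja1 alone was called with LPS (60.7 FPKM ± 14.0 in Media and 174 ± 51.1 in LPS, SD, n = 4), while Gfap, Slc1a3 and Sparcl1 had log2 fold changes of -0.15, 0.32 and 0.12, not called. Their part in the GTPase result was not tested.

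Gbp5, a guanylate-binding protein that promotes inflammasome activation, had the largest change of the set. It was at 5.58, 2.48, 8.35 and 5.05 FPKM in Media libraries 1 to 4 and at 147, 102, 211 and 239.6 FPKM in LPS libraries 1 to 4. The lowest LPS library stood above the highest Media library by a wide margin. Its log2 fold change of 4.80 ± 0.40 (SE, adjusted p = 5.45e-06 by limma) ranked 6th from the top among 11242 genes, and the ratio within replicate numbers was 25.3 to 47.4.

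Gbp3 and Gbp2 followed. Gbp3, a neighbour of Gbp5 in the chromosome 3 cluster, was at 8.87, 3.98, 17.6 and 8.50 FPKM in Media and at 93.3, 47.9, 145 and 154 FPKM in LPS. These libraries did not overlap, and its log2 fold change was 3.39 ± 0.55 (SE, adjusted p = 0.000931 by limma). Gbp2, which takes part in the release of bacteria from vacuoles, was at 15.5, 8.30, 41.6 and 16.8 FPKM in Media and at 131, 81.9, 251 and 250.2 FPKM in LPS. Media library 3 was the highest of the Media libraries and yet below each LPS library. The log2 fold change of Gbp2 was 3.13 ± 0.57 (SE, adjusted p = 0.00182 by limma).

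Gbp7 and Iigp1 rose less, again without overlap. Gbp7 spanned 3.41 to 11.4 FPKM in Media and 18.3 to 58.9 FPKM in LPS, a log2 fold change of 2.31 ± 0.48 (SE, adjusted p = 0.00404 by limma). Iigp1, a GTPase that coats and disrupts the vacuole of Toxoplasma, spanned 3.16 to 10.4 FPKM in Media and 14.6 to 53.3 FPKM in LPS. Its log2 fold change was 2.52 ± 0.44 (SE, adjusted p = 0.00148 by limma).

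Gbp9 and the genes with the highest levels in Media had the smallest fold changes. Gbp9 was at 12.9, 4.62, 18.4 and 11.6 FPKM in Media and at 37.0, 17.9, 47.3 and 51.9 FPKM in LPS. LPS library 2 fell below Media library 3, so the groups overlapped, and the log2 fold change was 1.65 ± 0.47 (SE, adjusted p = 0.0221 by limma). Igtp overlapped in the same way, since LPS libraries 1 to 4 held 274, 87.5, 329 and 306 FPKM and Media library 3 held 108 FPKM. Igtp changed by 1.80 ± 0.59 on the log2 scale (SE, adjusted p = 0.0414 by limma). Irgm1 did not overlap, with 269, 139.7, 367 and 377 FPKM in LPS and a log2 fold change of 1.72 ± 0.44 (SE, adjusted p = 0.0137 by limma).

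Calls of Gbp9 and Igtp rested on single libraries in the fit without the block. Gbp9 lost its call without Media library 2, LPS library 3 or LPS library 4, with adjusted p up to 0.0636 in limma. Igtp lost it without any of Media 1, Media 2, Media 4, Hevin 1, Hevin 4, LPS 1, LPS 3 or LPS 4, with adjusted p up to 0.107 in limma. Without all 3 libraries numbered 2, each of the 8 members was called, with adjusted p from 7.35e-06 to 0.00152 in limma. Without number 1, Gbp9 (adjusted p = 0.0847), Irgm1 (0.0643) and Igtp (0.139) were not called by limma. Without number 4 the same 3 genes were not called by limma, with adjusted p of 0.137, 0.106 and 0.179, and without number 3, Gbp9 (0.0513) and Igtp (0.0934) were not called.

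**Figure D2:**
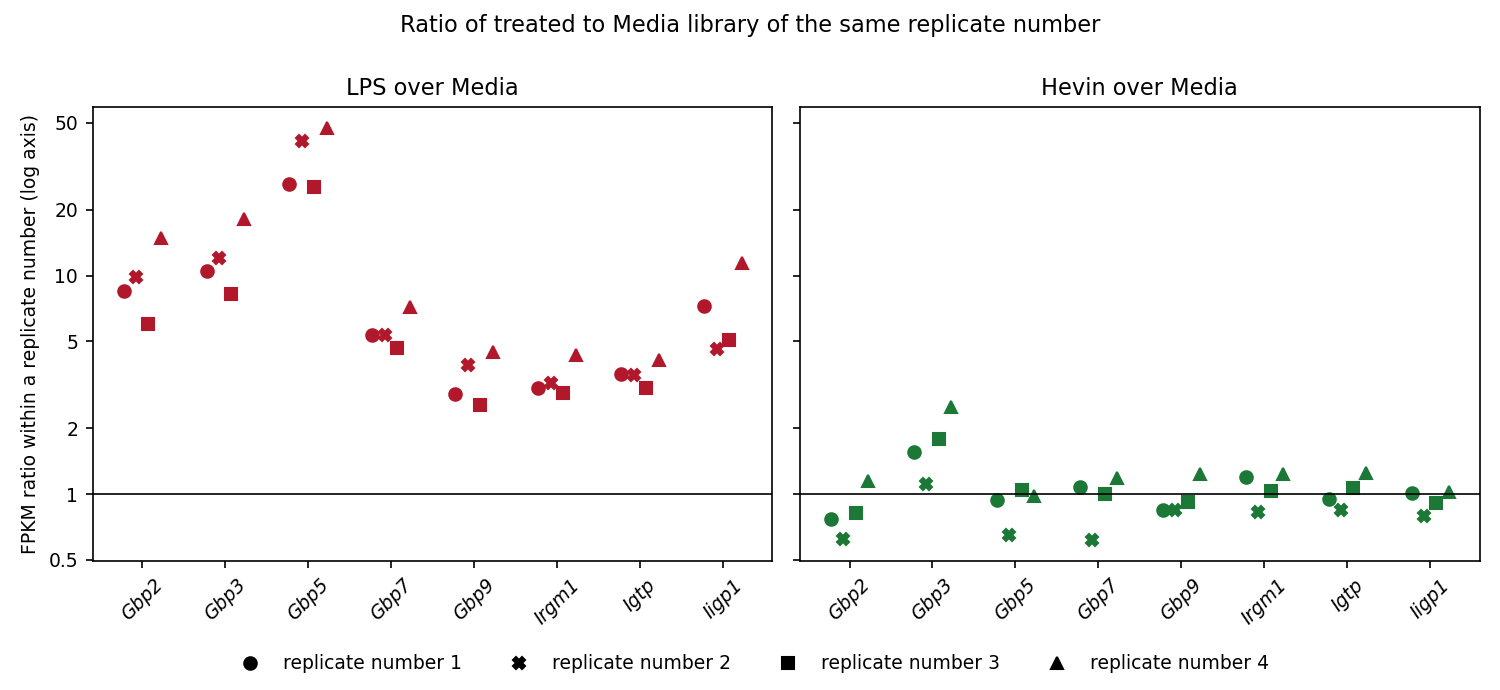
FPKM of a treated library divided by FPKM of the Media library with the same replicate number, for each GTPase gene (log axis, line at a ratio of 1). LPS ratios run from 2.57 for Gbp9 to 47.4 for Gbp5, and Hevin ratios run from 0.614 to 2.50, with Gbp3 the gene above 1 in all 4 pairs.

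The make-up of the GTPase pool differed in LPS. The summed level of the 8 members was 219 FPKM ± 101 in Media, 236 ± 118 in Hevin and 1123 ± 458 in LPS (SD, n = 4). Irgm1 and Igtp made up 72.6% ± 2.90 of this sum in Media, 73.0% ± 3.15 in Hevin and 47.7% ± 3.48 in LPS (SD, n = 4). The 4 LPS libraries spanned 44.5 to 52.5% and the 8 other libraries spanned 68.5 to 76.1%. Gbp5 went from 2.48% ± 0.127 of the sum in Media to 16.2% ± 2.71 in LPS (SD, n = 4). It was the lowest of the 8 in Media, and in LPS it stood level with Gbp2, above it in 2 of 4 libraries, with a ratio of Gbp5 to Gbp2 of 0.201 to 0.361 in Media and 0.843 to 1.25 in LPS. Gbp9 went the other way, from above Gbp3, Gbp7, Iigp1 and Gbp5 in Media to the lowest mean in LPS, and it was below Iigp1 in 3 of the 4 LPS libraries. These shares rest on the same values as the fold changes above and are given as a description.

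**Figure D3:**
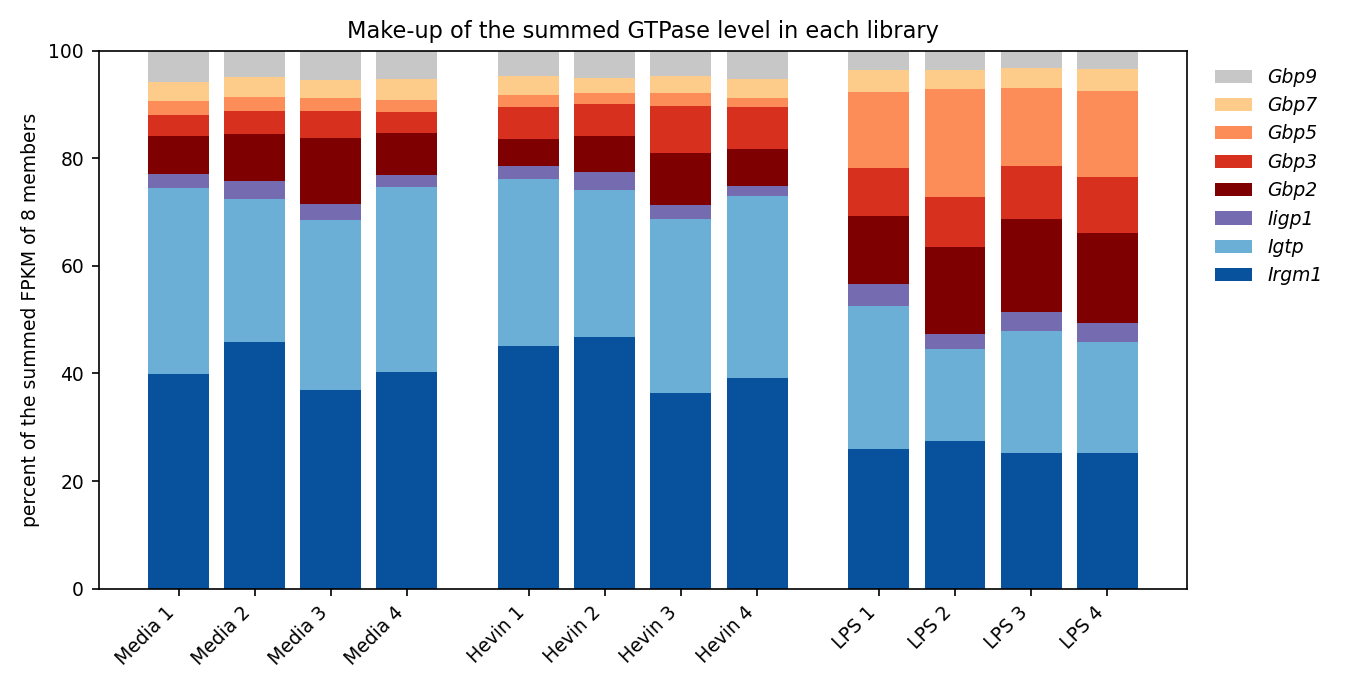
Share of each GTPase gene in the summed FPKM of the 8 members, 1 bar per library. Irgm1 and Igtp together take 68.5 to 76.1% of the sum in the Media and Hevin bars and 44.5 to 52.5% in the LPS bars, where the Gbp5 and Gbp2 segments are wider.

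Hevin against Media asks whether the astrocyte protein acts on these genes. In the fit without the block, 0 of 8 members were called in either direction, where 4.27% of genes tested were called higher and 3.1% lower, and 0 of 8 had an unadjusted p under 0.05 in limma. Log2 fold changes ran from -0.26 ± 0.57 for Gbp2 to 0.68 ± 0.55 for Gbp3 (SE). For the other 6 they lay between -0.12 and 0.08, with SE between 0.40 and 0.59. With the block the SE of the 8 members was 0.09 to 0.18. Hevin and Media libraries overlapped for 8 of 8 members, while 9.05% of genes were higher and 7.55% lower without overlap. In the pairs, Hevin exceeded Media in 17 of 32 cases, and by number in 4, 1, 5 and 7 of 8 members for numbers 1 to 4.

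Gbp3 was the member whose call depended on the pairing. It was at 8.87, 3.98, 17.6 and 8.50 FPKM in Media and at 13.8, 4.44, 31.3 and 21.2 FPKM in Hevin libraries 1 to 4. Each Hevin library was above the Media library of its number, by ratios of 1.55, 1.12, 1.78 and 2.50, though the groups overlapped. In all 4 pairs 23.4% of genes tested were higher. Without the block, Gbp3 changed by 0.68 ± 0.55 on the log2 scale (SE, adjusted p = 0.562 by limma). With the block the SE was 0.17 and the adjusted p was 0.0173 by limma, beside 10.8% of genes called higher and 10.6% lower. With the block on the 3 numbers other than 2, the change was 0.87 (adjusted p = 0.0083 by limma). Under the block the other 7 members were not called, with adjusted p between 0.306 and 0.878 in limma.

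Relative to 5 of the 7 other members, Gbp3 also stood higher in Hevin than in Media. The ratio of Gbp3 to Gbp2 within a library spanned 0.857 to 1.16 in Hevin, compared with 0.423 to 0.574 in Media and 0.577 to 0.714 in LPS, so the Hevin libraries did not overlap with either other group. Ratios of Gbp3 to Gbp5, Gbp7, Gbp9 and Igtp were higher in all Hevin than in all Media libraries as well, while those to Irgm1 and Iigp1 overlapped. A high ratio was not particular to Hevin. In LPS the ratios to Gbp9 (2.52 to 3.06), Irgm1 (0.343 to 0.408) and Igtp (0.340 to 0.547) lay above those in Hevin. The Hevin ratios were 1.14 to 1.86, 0.124 to 0.240 and 0.189 to 0.271. Between Hevin and LPS, the ratio to Gbp5 was lower in LPS, and those to Gbp7 and Iigp1 overlapped. Of the 21 ratios among the other 7 members, 0 separated the Hevin from the Media libraries. Ratios were looked at after the values had been seen and are a description with no test. Some reads of Gbp7 and Gbp3 may be exchanged, since their transcripts share sequence.

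**Figure D4:**
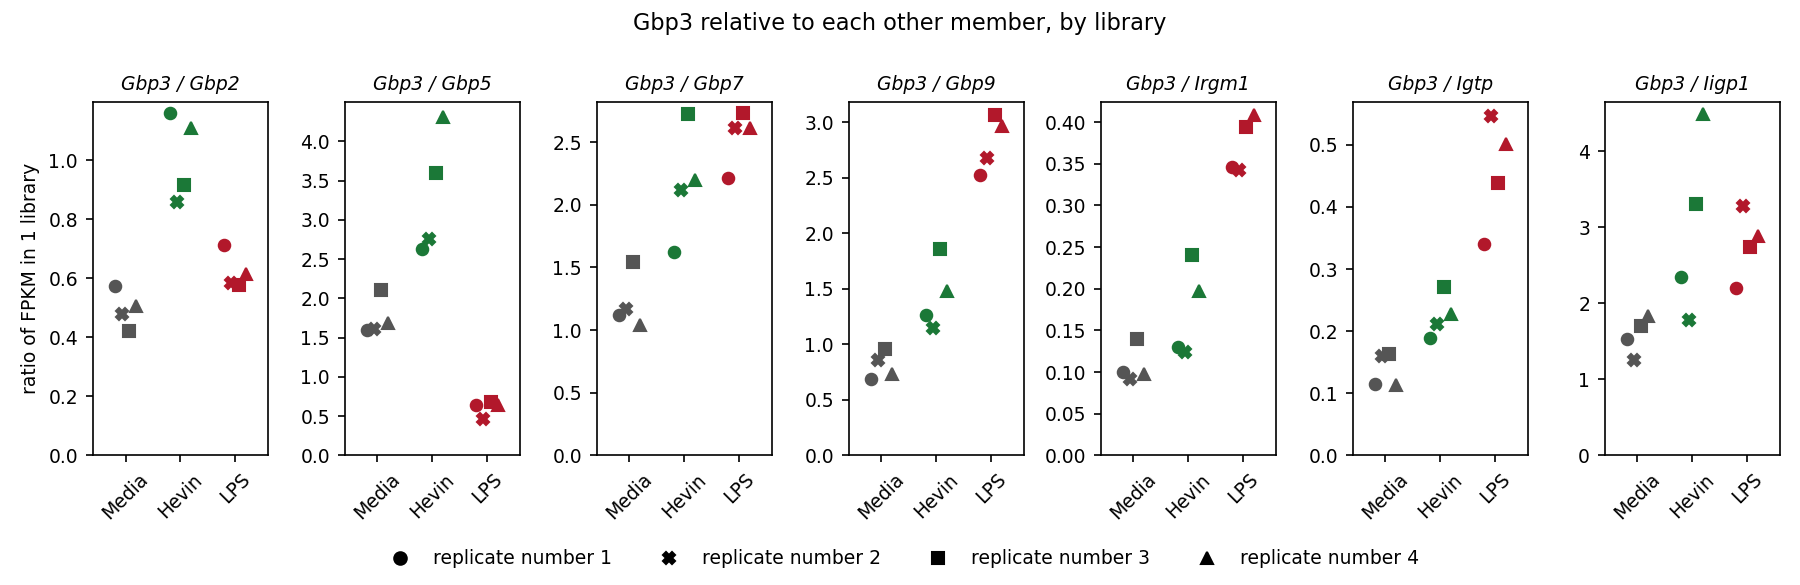
FPKM of Gbp3 divided by FPKM of each other GTPase gene in the same library (axis from 0, a separate scale in each panel), with symbols giving the replicate number. For Gbp2 the Hevin libraries sit at 0.857 to 1.16, above the Media libraries at 0.423 to 0.574 and the LPS libraries at 0.577 to 0.714. For Gbp9, Irgm1 and Igtp the LPS libraries lie above the Hevin libraries.

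Hevin and LPS were also compared directly, and all 8 members were lower in Hevin, beside 19.7% of genes called lower. Log2 fold changes ran from -1.64 ± 0.44 for Irgm1 to -4.92 ± 0.40 for Gbp5 (SE), with adjusted p between 2.31e-06 and 0.0296 in limma. Libraries did not overlap for 7 of 8 members, against 17.5% of genes lower without overlap. Within replicate numbers, Hevin was below LPS in 32 of 32 pairs of member libraries, and 30.5% of genes were lower in all 4 pairs. With the block all 8 were called, beside 28% of genes. Igtp was the exception to the lack of overlap, as LPS library 2 (87.5 FPKM) lay below Hevin library 3 (115 FPKM) and Hevin library 4 (93.2 FPKM). The Igtp call, a log2 fold change of -1.78 ± 0.59 (SE, adjusted p = 0.0296 by limma), was lost without Hevin 2, LPS 1, LPS 3 or LPS 4, with adjusted p up to 0.0778 in limma. Both comparisons of LPS share the LPS libraries, and both comparisons with Media share the Media libraries.

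Low levels in number 2 were not matched by low microglial markers. The 9 microglia markers (Cx3cr1, P2ry12, Tmem119 and others, all listed) summed to 678, 1264 and 600.4 FPKM in number 2 of Media, Hevin and LPS, against group medians of 648, 1213 and 567 FPKM. Neutrophil markers did move with number 2. The 6 of 7 markers that were listed summed to 1440 to 1509 FPKM in its 3 libraries and to 38.7 to 119 FPKM in the other 9. S100a8 and S100a9, calcium-binding proteins of neutrophils and some monocytes, made up most of this, at 501 to 624 and 789 to 962 FPKM in number 2. The granule genes Mpo and Elane were at 8.45 to 11.4 and 7.90 to 11.1 FPKM in number 2 and at most 1.16 and 1.77 FPKM elsewhere. Csf3r was highest in number 2 in Media (9.81 FPKM) and lowest in number 2 in LPS (16.0 FPKM). Whether other cells played a part in the low GTPase levels was not tested. The median LPS to Media ratio over members was 5.00 in number 2 and 6.31, 4.87 and 9.33 in numbers 1, 3 and 4, so number 2 lay between numbers 3 and 1. Within groups, number 2 was the lowest library for the sum of astrocyte markers in LPS (121 FPKM), of oligodendrocyte lineage markers in Media and Hevin (11.4 and 22.9 FPKM) and of border macrophage markers in LPS (684 FPKM). Of the T and NK cell markers 1 of 10, Cd4, was listed, at 1.35 to 3.57 FPKM.

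Members rose and fell together between libraries of 1 group. Over 12 libraries, deviations from the group means on the log2 scale had a Pearson r of 0.901 to 0.996 (median 0.961) for the 28 pairs of members, and these points share the libraries, the replicate numbers and, for relatives, some sequence. By the same deviations, the genes most like the mean of the scaled members among 7910 ranked were Ifi205 (0.995), Mx2 (0.991), Sp100 (0.991), Mnda (0.990), Rsad2 (0.989), Samd9l, Pyhin1 and Slfn1 (0.988 each). The median gene had an r of -0.14. By level over all 12 libraries the nearest genes were Ifi205 (0.997), Rsad2 (0.997), Mx2, Ifit2, Mnda, Gbp6, Gbp10 and Daxx (0.991). Ifi205, Mx2, Mnda and Rsad2 are in both lists.

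Other genes of the families behaved as follows. Of 22 further interferon-inducible GTPases sought, 17 were listed and 15 were tested, and 13 of these 15 rose with LPS (15 with the block). Over all genes tested, 13.2% were called higher, and 21.5% with the block. Gm12250, also known as Irgb10, which acts on bacterial membranes, went from 7.92 FPKM ± 4.13 to 57.9 ± 23.2 (SD, n = 4; log2 fold change 2.76 ± 0.53, SE, adjusted p = 0.0027 by limma). Gbp6 went from 8.64 FPKM ± 5.74 to 46.9 ± 23.5 (SD, n = 4). Also called were Gbp4, Gbp10, Irgm2, Tgtp1, Tgtp2, Ifi47, Gm4951, Gm5431, 9930111J21Rik1, Mx1 and Mx2, while F830016B08Rik (log2 fold change 0.86) and 9930111J21Rik2 (0.49) passed with the block alone. Gbp8 and Gbp11 were too low to be tested, at means of at most 0.998 and 0.521 FPKM in any group. The libraries numbered 2 were lowest in 49 of 51 sets of these genes.

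For Hevin against Media, 0 of these 15 were called without the block, beside 4.27% of genes tested called higher and 3.1% lower. With the block 1 was called higher and 1 lower, beside 10.8% and 10.6% of genes tested. Gbp4 was at 2.60, 1.28, 4.80 and 3.01 FPKM in Media and at 1.36, 0.652, 3.43 and 1.92 FPKM in Hevin. Each Hevin library was below its Media partner, and with the block Gbp4 was called lower (log2 fold change -0.48, adjusted p = 0.0168 by limma; 0.573 without the block). Gm12250 was higher in 4 of 4 pairs and was called higher with the block (log2 fold change 0.44, adjusted p = 0.0393 by limma; 0.737 without the block). In Hevin against LPS, 14 of 15 were called lower, beside 19.7% of genes tested, the exception being F830016B08Rik.

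Upstream of the GTPases, the ligand gene Ifnb1, which encodes interferon beta, was low without LPS. It was at 0.89 FPKM ± 0.35 in Media, 0.242 ± 0.203 in Hevin and 19.7 ± 8.07 in LPS (SD, n = 4), a log2 fold change with LPS of 3.37 ± 0.27 (SE, adjusted p = 3.85e-06 by limma). Ifnb1 was not lowest in number 2, where it reached 1.27 FPKM in Media, the highest of that group, and 23.5 FPKM in LPS. Ifng, which encodes interferon gamma, was not analysed here. Counts in this and the following lists stand beside 13.2% of all genes called higher and 12.6% lower with LPS. With Hevin these shares were 4.27% higher and 3.1% lower. With the block, 21.5% were called higher and 2498 of 11242 genes lower with LPS, and 10.8% higher and 10.6% lower with Hevin. Of 8 ligand, receptor and kinase genes tested, 5 rose with LPS and 0 fell (6 with the block). The kinase gene Jak2 went from 22.3 FPKM ± 1.80 in Media to 60.0 ± 13.2 in LPS, and the type I receptor gene Ifnar2 from 31.1 ± 0.544 to 69.4 ± 11 (SD, n = 4).

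Receptor and kinase genes also rose with Hevin. In Hevin against Media 4 of 8 were called higher, namely Ifngr2, Ifnar1, Ifnar2 and Jak2, where 4.27% of all genes tested were. Ifngr2, a chain of the interferon gamma receptor, went from 81.4 FPKM ± 12 to 126 ± 18.4 (SD, n = 4; log2 fold change 0.63 ± 0.15, SE, adjusted p = 0.0263 by limma). Jak2 went from 22.3 FPKM ± 1.80 to 44.4 ± 2.85 (SD, n = 4; log2 fold change 0.96 ± 0.13, SE, adjusted p = 0.000955 by limma). The partner chain gene Ifngr1 was at 39.8 FPKM ± 6.95 in Media, 43.9 ± 5.98 in Hevin and 46.3 ± 4.34 in LPS (SD, n = 4), and was not called against Media without the block.

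Among 11 STAT and IRF genes, 4 rose and 3 fell with LPS (8 and 3 with the block). Irf1, whose product binds ISREs, went from 15.4 FPKM ± 2.61 to 58.6 ± 4.92 (SD, n = 4; log2 fold change 1.88 ± 0.18, SE, adjusted p = 1.92e-05 by limma). Batf2, an interferon-induced partner of IRF1, changed by 2.15 ± 0.41 on the log2 scale (SE, adjusted p = 0.0027 by limma). Stat2, Irf9 and Irf7 were lowest in number 2 in every group, like the GTPases. Stat2 was called with an adjusted p of 0.0434 in limma, and Irf9 (log2 fold change 0.81) and Irf7 (1.28) were called with the block, with adjusted p of 1.20e-05 and 8.23e-06 in limma, and not without it. Those that fell were Irf3, Irf5 and Irf8, of which Irf8 was not called without the libraries numbered 2 (adjusted p = 0.107 by limma).

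With Hevin, Irf8, a factor of the microglial lineage, rose from 25.8 FPKM ± 3.16 to 45.4 ± 6.57 (SD, n = 4; log2 fold change 0.79 ± 0.15, SE, adjusted p = 0.00559 by limma). In LPS it was at 18.6 FPKM ± 3.69 (SD, n = 4). It was the 1 gene of the list called with Hevin without the block.

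Of 10 genes listed as brakes on interferon signalling, 7 rose with LPS and 1, Ptpn6, fell. Socs3, a feedback inhibitor of cytokine receptors, went from 17.5 FPKM ± 3.43 to 429 ± 116 (SD, n = 4). Isg15, which encodes a ubiquitin-like protein and was counted in this list, went from 291 FPKM ± 186 to 1260.3 ± 403 (SD, n = 4). Socs1 went from 1.27 FPKM ± 0.572 to 3.98 ± 1.16, and Usp18 from 33.0 ± 18.2 to 133 ± 66.7 (SD, n = 4). With Hevin 0 of 10 were called without the block, and with it Usp18 was called higher (log2 fold change 0.49, adjusted p = 0.00129 by limma) and Ptpn6 lower (-0.25, adjusted p = 0.0362 by limma). Over all genes tested, 10.8% were called higher and 10.6% lower with the block.

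Interferon targets outside the GTPases rose with LPS as well. Of 12 interferon gamma type targets tested, 7 rose and 0 fell (12 and 0 with the block), among them the chemokine gene Cxcl10, from 38.6 FPKM ± 8.0 to 1690.3 ± 296, and the checkpoint ligand gene Cd274, from 17.0 ± 2.32 to 156 ± 45.6 (SD, n = 4). Of 25 type I antiviral targets, 14 rose and 0 fell (25 and 0 with the block), led by Oasl1 (log2 fold change 3.32 ± 0.41) and Ifit1 (3.20 ± 0.54, SE). Over all genes tested, 13.2% were called higher with LPS, and 21.5% with the block. The lists share Irf1, Socs1, Usp18, Isg15, Mx1 and Mx2 with those above. The median log2 fold change was 1.11 for the first list and 1.73 for the second. It was 2.41 for the 8 members, 1.95 for the 15 other interferon-inducible GTPases tested and -0.02 for all genes tested. With Hevin 0 of 12 and 0 of 25 were called without the block.

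Among inflammasome genes listed as partners of the guanylate-binding proteins, 3 rose with LPS and fell with Hevin. Of 9 inflammasome genes, 4 rose with LPS and 0 fell (6 with the block). Casp4, which encodes the LPS-sensing caspase-11, went from 69.3 FPKM ± 14.9 to 289 ± 63.1, Nlrp3 from 78.0 ± 13.3 to 431 ± 72.3, and the cytokine gene Il1b from 164 ± 26.1 to 2231 ± 573 (SD, n = 4). With Hevin the same 3 genes fell, Casp4 to 32 FPKM ± 7.30, Nlrp3 to 42.1 ± 8.0 and Il1b to 53.4 ± 21.7 (SD, n = 4). Log2 fold changes with Hevin were -1.10 ± 0.22, -0.88 ± 0.17 and -1.67 ± 0.27 (SE), with adjusted p of 0.00844, 0.00765 and 0.00229 in limma.

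Genes listed for the placing of these GTPases on membranes were called about as often as all genes tested. The first list held 11 genes, those of the ATG conjugation system, which directs GTPases to vacuoles, and Ube2l6. The latter is not an ATG gene and was lowest in number 2 in every group, like the GTPases. Of the 11 genes, 1 rose with LPS (Atg12, log2 fold change 0.39 ± 0.11, SE) and 1 fell (Atg7, -0.27 ± 0.08, SE). The second list held 7 genes of prenylation, which attaches the lipid anchor of GBP2 and GBP5, and of later processing. Not all 7 attach that anchor. Of them 1 rose, Pggt1b, from 14.6 FPKM ± 1.22 to 19.3 ± 1.19 (SD, n = 4), against 13.2% of all genes higher and 12.6% lower. With Hevin 0 of 11 and 0 of 7 were called without the block. With it, Atg5, Atg7 and Ube2l6 were called higher, and of the second list Icmt was called higher and Fnta and Rabggtb lower. Beside these, 10.8% of genes were called higher and 10.6% lower. Scalings with no adjustment for composition moved the median gene to -0.34 or -0.36 with LPS, close to the size of these changes.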

How the data were processed

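Expression was measured by RNA-seq in 12 libraries, 4 in each of 3 groups, grouped and numbered from the sample titles. The authors deposited FPKM values for 14541 genes, 22 of them with symbols turned into dates. Per the submitters' processing notes, edgeR 3.30.3 in R 4.0.0, Subread 1.6.3 with featureCounts, Bowtie2 2.3.5.1 and, for reads, Trimmomatic 0.39 and FastQC 0.11.7 were used with the build mm10. Annotation, row filter and strand setting: not given in the sources used here. In 100% of rows the FPKM steps gave whole reads within 0.1, or 18343996 to 27361665 in a library and 112 to 19984 for a member in 1 library. The deposited values hold scaling factors within 0.00124% of trimmed-mean factors computed from these reads, at 0.804 to 0.897 in LPS and 1.02 to 1.16 elsewhere.

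All 12 libraries were fitted together with limma 3.58.1 (R 4.3.3) on log2(FPKM + 1) with a trend and no block. Benjamini-Hochberg adjustment ran over 11242 genes, and the threshold was 0.05. Fold changes on this scale understate the change of low genes. The fit was tested on simulated data. The block is an alternative. The titles repeat numbers 1 to 4, and the column headers join each number under a further group number (4 to 7). Same-numbered deviations correlated at 0.230 to 0.784 in 12 pairs (mean between other numbers -0.201). Between numbers 3 and 4 they correlated at 0.435 to 0.528. Named were all 8 members, every other listed family GTPase, main signalling genes and the 2 largest LPS changes called in each list at 5 FPKM or more; some are left out of the text, and 1 is not reported here. Members and lists were chosen with earlier results of these data known. Alternatives were pseudocounts, filters, scalings, no trend, the groups compared alone, limma-voom on recovered reads, the block and leaving out libraries or numbers; limma-voom with the block and the block without number 2 were added after seeing the data. Genes were matched to GENCODE M21 and promoters to RefSeq by symbol. Figures were drawn with matplotlib 3.10.9.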

Additional observations from a re-analysis of the deposited data

Results flagged for a closer look

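In 2 of the 24 sets of 1 member in 1 group, the lowest library stood far from the other 3 on the log2(FPKM + 1) scale, by Dixon's criterion at the 95% level. These were Irgm1 in Hevin, at 35.7 FPKM in library 2, and Igtp in LPS, at 87.5 FPKM in library 2. Chance gives about 1 in 20, and the sets are not independent, since number 2 was lowest in all 24.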

How the results depend on the processing

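No called member changed direction, and the 8 members kept their LPS call in 216 of 240 cases (24 lost). The replicate block gave 4914 genes for LPS against Media in place of 2897, 2406 for Hevin against Media in place of 829, and 1 member called for Hevin (Gbp3); it changed no other member's call. Limma-voom with the block gave 4957, 2729 and 1, and the block without number 2 gave 4638, 1958 and 1. Leaving out the 3 libraries numbered 3 gave 1619 and 318 genes. Leaving out number 4 gave 1323, 266 and, for Hevin against LPS, 2926 in place of 4685; 5 members stayed called for LPS against Media and 5 for Hevin against LPS. Without number 1, 5 members were called for LPS against Media. Leaving out each library in turn gave 2164 to 2869, 511 to 930 and 3865 to 4702 genes, and 6 to 8, 0 to 0 and 7 to 8 members; for Hevin against Media, 511 was without Media library 3 and 532 without Hevin library 4. The TPM-like scale gave 6261 genes for LPS against Media (670 higher, 5591 lower, against 1484 and 1413) and limma-voom without scaling factors 5679 (728 and 4951); upper quartile scaling gave 1136 and 2466, and quantile normalization 1118 and 1664. Under quantile normalization Irgm1 (adjusted p = 0.0659) and Igtp (0.121) lost their LPS call in limma; Igtp also did under the TPM-like scale (0.0614), upper quartile scaling (0.053) and limma-voom without factors (0.0615). For Hevin against LPS the sign turned for Ifngr1 (0.34 on the TPM-like scale, 0.28 in limma-voom without factors), Jak2 (0.0179 on the TPM-like scale), Atg12 (0.0176 likewise) and Pggt1b (0.0824 and, in limma-voom without factors, 0.017). Depth limits few members, as each had at least 112 reads in every library; Gbp8 and Gbp11 could not be tested.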
